A study of Mus musculus with 2 samples.

Results

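The microRNA hairpin genes Mir132, Mir212 and Mir184 were described in the forebrain of newborn mice. They were chosen by name, as the CREB-responsive pair Mir132 and Mir212 together with Mir184, and their rows were found by Ensembl identifier. These are 3 of the 1973 microRNA genes in the count tables, and all 3 were found. Small RNA below 30 nucleotides was sequenced from 1 group of 2 samples, each the whole forebrain of a separate pup of strain B6NCrl at postnatal day 0. The samples are pup 3 (biological replicate 2) and pup 1 (biological replicate 1), with no treatment or genotype named. The labels list the same donor record for both pups and no sex, so any part of litter or sex in a difference between the pups cannot be told apart. No conditions were contrasted, and what follows describes levels and their spread between the pups.

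MicroRNAs are cut from hairpin precursors, and the mature strand guides Argonaute to target messages, mainly through its seed, bases 2 to 8. In rodent neurons the shared Mir212 and Mir132 transcript is a target of the transcription factor CREB and is made after synaptic activity or BDNF. Its product miR-132 promotes the growth of dendrites. In adult mouse neural stem cells miR-184 is held down by Mbd1. Mir184 is also known as an abundant microRNA of lens and corneal epithelium.

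The mature sequences are shown first because they say which members can act on the same sites and whether reads can be told apart. They are from RefSeq on GRCm38.p6, 5′ to 3′, with the seed in capitals; all 3 genes matched and gave 6 arms.
miR-132-3p: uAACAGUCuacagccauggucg
miR-212-3p: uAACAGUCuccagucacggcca
miR-132-5p: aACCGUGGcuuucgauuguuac
miR-212-5p: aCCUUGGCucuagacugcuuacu
miR-184-3p: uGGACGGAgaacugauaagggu
miR-184-5p: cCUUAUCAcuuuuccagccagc

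The 3p arms of Mir132 and Mir212 carried the same seed, AACAGUC, and no other of the 1679 mature mouse names in the table carried it. The arms were identical over their first 9 bases and at 17 of 22 positions in all. Counted from the 5′ end, miR-132-3p and miR-212-3p differed by A10C, C14U, U17C, U20C and G22A, with the base of miR-132-3p written first. The 5p arms of the pair had different seeds, ACCGUGG in miR-132-5p and CCUUGGC in miR-212-5p. Neither arm of Mir184 shared its seed with any other mature name, so Mir184 has no seed relative among the members or elsewhere in the table.

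The hairpins show how each gene holds its arms, and are printed 5′ to 3′ with both arms in capitals and loop and flanks in lower case.
Mir132: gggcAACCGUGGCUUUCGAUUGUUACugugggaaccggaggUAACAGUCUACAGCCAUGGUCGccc
Mir212: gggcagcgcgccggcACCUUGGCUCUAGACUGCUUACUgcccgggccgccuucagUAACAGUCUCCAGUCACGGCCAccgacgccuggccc
Mir184: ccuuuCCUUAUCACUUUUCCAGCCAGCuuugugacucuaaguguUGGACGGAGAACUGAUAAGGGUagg

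The hairpin of Mir212 was the richest in G and C of the members. Its GC content was 69.2%, above that of 97.5% of the 433 hairpins detected here, where detected means 10 or more counts in both pups. The hairpin of Mir132 held 57.6% and that of Mir184 46.4%, against a median of 50.6% over the detected hairpins. The longest exact stretch that Mir132 and Mir212 had in common was 10 bases. Against all 1894 annotated hairpins with a sequence, on either strand, the longest shared stretch was 10 bases for Mir132, 12 for Mir212 and 11 for Mir184. Hairpins with near-identical copies can lose reads that map to several places, which made up 43.5% of the library of pup 3 and 43.0% of that of pup 1. By the hairpin search no member has such a copy; the rest of the genome was not searched.

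Mir212 (ENSMUSG00000065590.1, chr11:75173388-75173478, plus strand, GRCm38) and Mir132 (ENSMUSG00000065537.1, chr11:75173682-75173747, plus strand) lay 203 bases apart. Both lay inside intron 1 of the noncoding transcript 1700016P03Rik in GENCODE M21, Mir212 upstream of Mir132. M21 lists Mir132 under a later version, ENSMUSG00000065537.2, than the count tables do, so the interval over which its reads were counted may differ from the one given here. The nearest protein-coding genes were Ovca2, 2194 bases beyond Mir132, and Hic1, 3868 bases before Mir212, both on the minus strand. Mir184 (ENSMUSG00000065596.1, chr9:89802260-89802328, minus strand) overlapped no other annotated gene. Its nearest neighbour was the noncoding gene 1700017I07Rik at 541 bases on the plus strand, and the imprinted gene Rasgrf1 began 107579 bases away. No other annotated hairpin lay closer to Mir184 than Mir6386, at 2464929 bases.

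**Figure D1:**
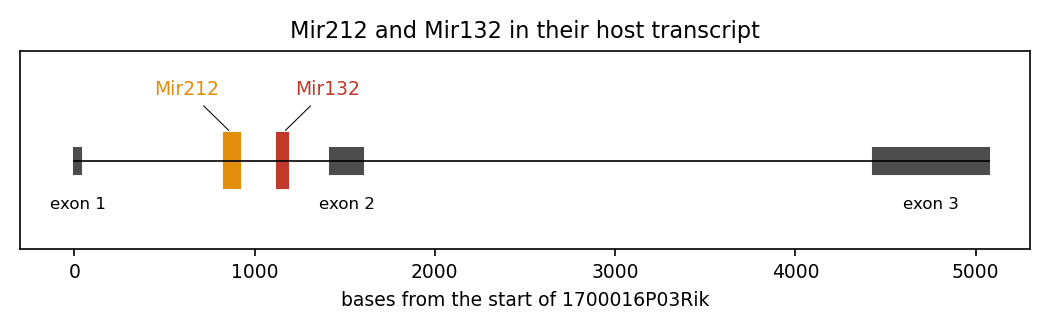
Map of the annotated transcript 1700016P03Rik, with bases from its start on the horizontal axis, exons as dark boxes and hairpins as coloured boxes. Mir212 and Mir132 lie next to each other in intron 1, 203 bases apart.

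The libraries were of similar depth. In pup 3, 7678662 of 18798326 reads (40.8%) fell in a microRNA gene, and in pup 1, 9037087 of 22470992 reads (40.2%) did. Levels are given as CPM, a gene's count per 1000000 of the reads that fell in microRNA genes. As a check of the tissue, 9 of 10 measured microRNAs of neural tissue were detected, and they summed to 45212 CPM in pup 3 and 34802 CPM in pup 1. They were led by Mir137 (28970 ± 6541 CPM, SD, n = 2) and Mir128-1 (5919 ± 1152 CPM), brain-enriched microRNAs. The 3 hairpins of the neuronal marker Mir124a and the progenitor hairpin Mir9-2 each stood below 10 CPM on the mean, while Mir9-3, another hairpin of the same microRNA as Mir9-2, stood at 533 ± 214 CPM. Reads that map to several places are left out of these counts, so hairpins that share a mature microRNA can be undercounted. Low counts of Mir124a and Mir9-2 therefore do not show that their microRNAs were scarce. The 6 microRNAs of the Hox clusters, markers of more posterior tissue, summed to 148 CPM in pup 3 and 196 CPM in pup 1, led by Mir10b (95.2 ± 1.32 CPM) and Mir10a (65.7 ± 25.7 CPM), with Mir196a-1 at 0 in both. The same limit holds for the hairpin copies of Mir196a. A 0 there does not show that their microRNA was absent, and the sum may be too low. Cell types were not separated in this bulk tissue, so fewer cells of a type and less RNA per cell cannot be told apart.

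Mir132 was an abundant microRNA of the newborn forebrain, Mir212 stood at the middle of the detected genes, and Mir184 stood low among them. Mir132 had 12785 counts in pup 3 and 19607 counts in pup 1, which is 1665 CPM (95% exact Clopper-Pearson interval 1636 to 1694) and 2170 CPM (2139 to 2200). Its mean of 1917 ± 357 CPM (SD, n = 2) placed it 86th of the 1973 genes, above 80.1% of the detected ones and 19.7-fold over their median of 97.3 CPM. Its share of the reads counted in microRNA genes was 0.167% in pup 3 and 0.217% in pup 1. This total holds only reads with a single mapping place. The share of Mir132 among all microRNA reads, and its place among the genes, may therefore be lower.

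Mir212 had 645 counts in pup 3 and 973 counts in pup 1, or 84.0 CPM (77.6 to 90.7) and 107.7 CPM (101 to 115). Its mean of 95.8 ± 16.7 CPM (SD, n = 2) was 218th of all genes and 0.985 of the median detected gene. Mir212 is the partner made in the same transcript as Mir132, and its level was close to that of the median detected gene.

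Mir184 had 21 counts in pup 3 and 33 counts in pup 1, or 2.73 CPM (1.69 to 4.18) and 3.65 CPM (2.51 to 5.13). Its mean of 3.19 ± 0.648 CPM (SD, n = 2) was 383rd of all genes, and 11.8% of the detected genes stood lower. On CPM, which scales by total counts, the counting intervals of Mir184 overlapped between the pups, while those of Mir132 and of Mir212 did not. Whether Mir212 differed between the pups beyond counting error depended on the scaling, as given below. These intervals leave out any error other than counting, as there is 1 library a pup and no molecular identifiers are named. A count of 3, the limit that 0 counts allow, corresponds to 0.391 CPM in pup 3 and 0.332 CPM in pup 1, so Mir184 was above that limit in both.

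**Figure D2:**
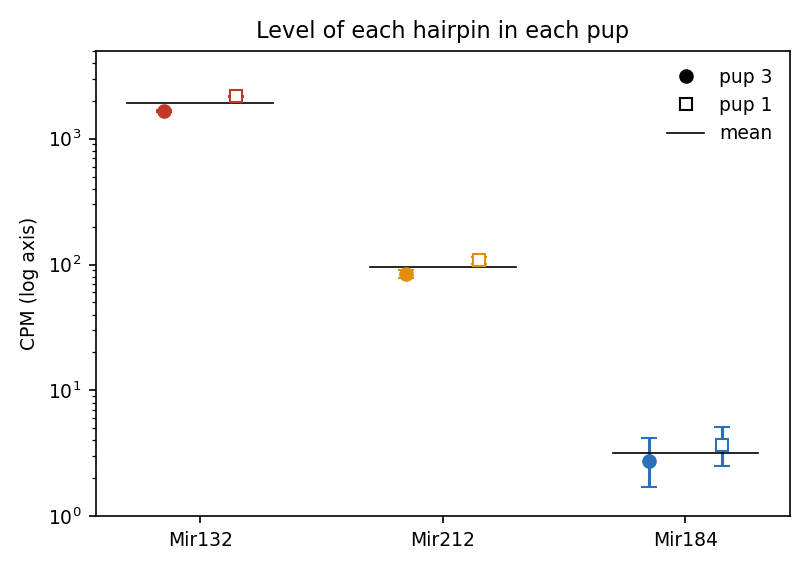
CPM of the 3 hairpins on a log axis, with filled circles for pup 3, open squares for pup 1, horizontal lines for the mean of the pups and bars for 95% exact intervals of counting error. Mir132 sits near 1917, Mir212 near 95.8 and Mir184 near 3.19, and pup 1 is above pup 3 in each.

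The order of the members was the same in both pups, Mir132 above Mir212 above Mir184. The mean of Mir132 was 20.01-fold that of Mir212, and the mean of Mir212 was 30.0-fold that of Mir184, both far beyond the spread between pups. That spread does not hold any error that is the same in both libraries, such as unequal capture of different sequences. Such an error was not tested, so these are ratios of counted reads. Ranks by count were 84 in pup 3 and 83 in pup 1 for Mir132, 220 and 219 for Mir212, and 389 and 374 for Mir184. With 2 pups an exact two-sided permutation test cannot go below p = 0.333, so the order is given as a description.

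**Figure D3:**
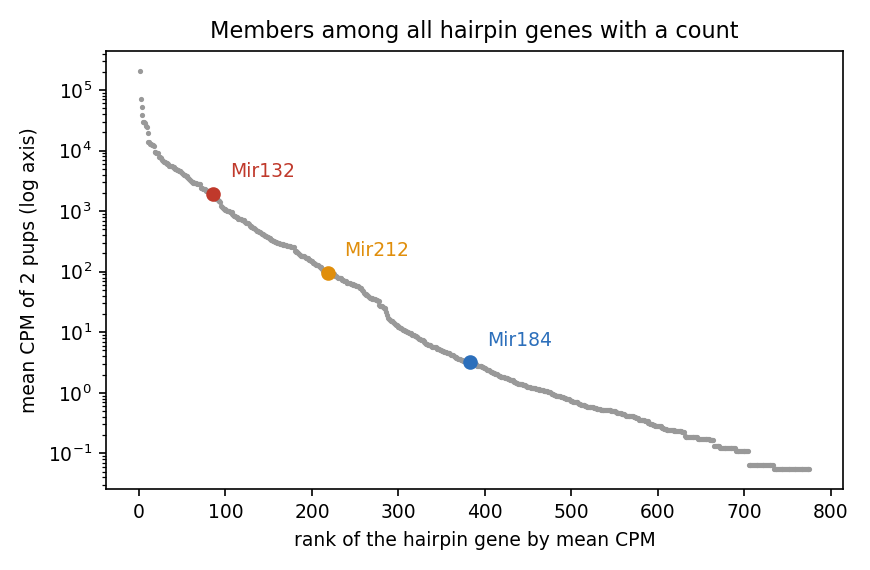
Mean CPM of every hairpin gene with a count (log axis) against its rank, with the 3 members coloured. Mir132 lies at rank 86, Mir212 at 218 and Mir184 at 383.

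All reads of the members stood in the second column of counts, as did 98.1% of the reads over all genes in pup 3 and 97.3% in pup 1. The columns carry no heading, and the second was read as the strand of the gene because it held nearly all reads, so the members' strand is taken from that reading and not shown on its own. The third column held 0 counts for each member in each pup, which allows up to 0.0235% of the reads of Mir132 in pup 3 and 0.0153% in pup 1. For Mir212 the limits were 0.465% and 0.308%. With 21 and 33 reads, the limits for Mir184 were 14.3% in pup 3 and 9.09% in pup 1, so depth says little about that column. A hairpin's count pools both arms, so the share of the 3p and 5p arms cannot be given.

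Mir132 and Mir212, which lie in the same intron, stood in proportions that differed between the forebrains by less than counting error. Mir132 had 19.8 counts for each count of Mir212 in pup 3 (95% exact binomial interval 18.3 to 21.5) and 20.2 in pup 1 (18.9 to 21.5). On the log2 scale this ratio was 4.32 ± 0.0168 (SD, n = 2), and its difference, pup 3 minus pup 1, was -0.02 (95% exact conditional interval -0.17 to 0.13). Of the reads of Mir132 and Mir212 together, with both arms pooled, Mir132 supplied 95.20% in pup 3 and 95.27% in pup 1. Only the 3p arms share a seed, so the split of that seed between the hairpins cannot be given. Divided by hairpin length, the ratio was 27.3 in pup 3 and 27.8 in pup 1; reads are of mature length, so the undivided ratio is the one used.

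The proportion to Mir184 also differed by less than counting error, within wide limits. Mir132 had 609 counts for each count of Mir184 in pup 3 (398 to 984) and 594 in pup 1 (423 to 863). The difference of the log2 ratio, pup 3 minus pup 1, was 0.04 with an interval of -0.80 to 0.90, so a difference inside those limits was not detectable at this depth. For Mir212 over Mir184 the ratio was 30.7 in pup 3 (19.9 to 49.96) and 29.5 in pup 1 (20.9 to 43.1).

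Mir132 and Mir212 were set among neighbouring hairpins, taken as pairs of adjacent hairpins on 1 strand, at most 1000 bases apart. Each hairpin had 100 or more counts in both pups, which gave 53 pairs, Mir132 with Mir212 among them. The log2 ratio of pup 3 over pup 1 differed by 0.02 between Mir132 and Mir212, and by a median of 0.55 over the 53 pairs. Mir302a with Mir302d and Mir106a with Mir20b were closer, at 0.0019 and 0.02, and the widest of the 53 pairs was Mir451a with Mir144, hairpins of red blood cells, at 1.74. In 43 of the 53 pairs the difference was beyond 0.17, the wider counting limit for Mir132 and Mir212. Pairs with fewer counts have wider limits of their own, so 43 is not the number of pairs that differ beyond counting error. Mir132 and Mir212 were also unequal in level, since the median pair differed 4.77-fold in mean CPM and only 11 pairs differed by more than the 20.01-fold of Mir132 over Mir212. The pairs share libraries and several share a transcript, so the counts are a description of these forebrains. This comparison was chosen after the values were seen.

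**Figure D4:**
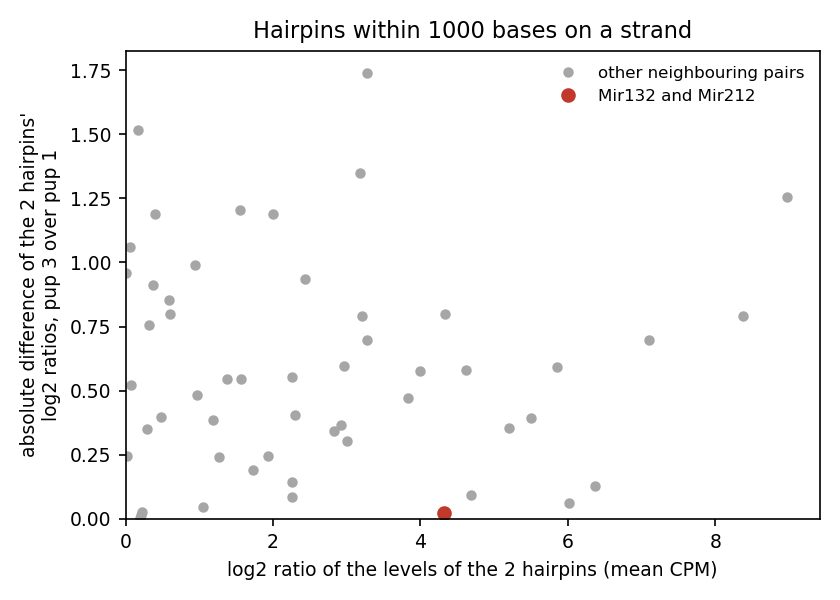
Each point is a pair of neighbouring hairpins within 1000 bases; the horizontal axis is the log2 ratio of their mean CPM and the vertical axis the absolute difference between their log2 ratios of pup 3 over pup 1. Mir132 and Mir212 lie at 4.32 and 0.02, low on the vertical axis, where the median pair is at 0.55.

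The ratio of pup 3 over pup 1 was below 1 for all 3 members, and of these Mir132 passed the test. Ratios were scaled by edgeR's TMM factors, and each gene's counts were set against counting error by a two-sided exact binomial test with Benjamini-Hochberg adjustment over 460 genes. The log2 ratio of pup 3 over pup 1 was -0.18 for Mir132 (95% exact interval -0.21 to -0.15, adjusted p = 3.05e-28 by the exact binomial test). It was -0.16 for Mir212 (-0.30 to -0.01, adjusted p = 0.0514 by the same exact test) and -0.20 for Mir184 (-1.08 to 0.62, adjusted p = 0.750). The members' count, 1 of 3 called lower and 0 called higher, stands against 32.8% of all tested genes called lower, 30.2% called higher and 63.0% called in either direction. The test compares these libraries and not conditions, and with so many genes called it says nothing particular about Mir132.

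The call of Mir212 turned on the settings. Its adjusted p by the exact binomial test ranged from 1.71e-06 under total counts to 0.0841 with no count minimum, and it passed also on sense-strand reads (0.0258) and with a count minimum of 50 (0.0455). Total counts lowered the log2 ratio of every gene by 0.20 relative to TMM, and gave -0.38 for Mir132, -0.36 for Mir212 and -0.40 for Mir184. Under that scaling 98 of 304 called genes were higher in pup 3, against 139 of 290 under TMM. Relative to the median gene of 10 CPM or more, the members were at -0.15, -0.13 and -0.17 for Mir132, Mir212 and Mir184, whichever of these scalings was used.

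The members' ratios lay inside the usual spread between the pups. Over the 310 genes that averaged at least 10 CPM, the log2 ratios had an SD of 0.64, quartiles of -0.36 and 0.35, and a median absolute value of 0.36. An absolute ratio below that of Mir132 was seen in 84 of these genes (27.1%), below that of Mir212 in 70 (22.6%) and below that of Mir184 in 96 (31.0%). Mir184 itself averaged below 10 CPM and is not one of these genes. Its counting interval, -1.08 to 0.62, is too wide to fix its place among them.

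**Figure D5:**
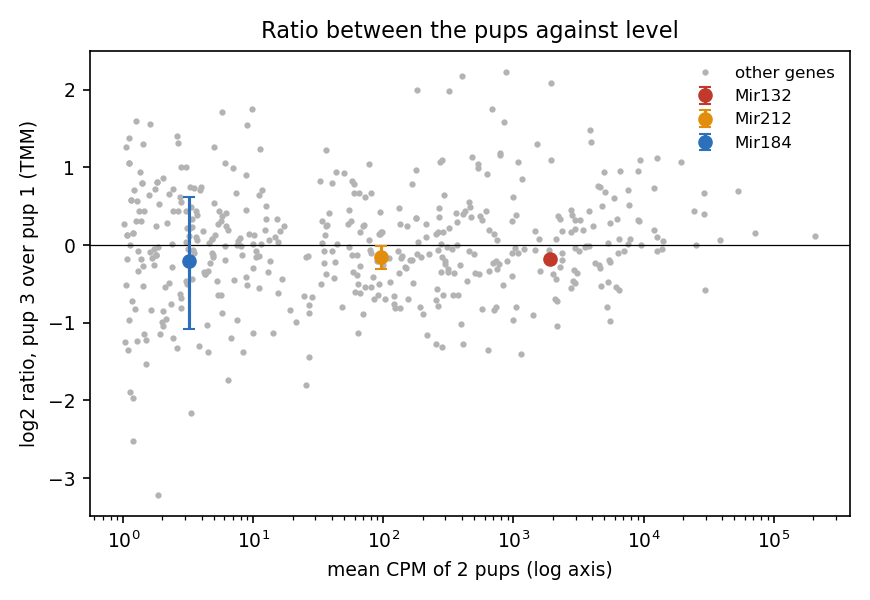
Log2 ratio of pup 3 over pup 1 after TMM scaling against mean CPM (log axis) for genes that averaged at least 1 CPM, with members coloured and bars for 95% exact intervals of counting error. The 3 members lie between -0.20 and -0.16, inside the cloud of the other genes, and the bar of Mir184 reaches from -1.08 to 0.62.

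Among other microRNAs linked to neuronal activity and synaptic plasticity, Mir132 was one of the more abundant by counted reads. Of 23 listed hairpins 22 were measured, and 5 of these stood above Mir132, 14 above Mir212 and 20 above Mir184. Several listed hairpins are copies of the same microRNA, such as those of Mir124a and Mir138. Such copies can lose reads that map to several places, so their true place relative to the members may be higher. The list was led by Mir335, in the imprinted gene Mest, at 29226 ± 2784 CPM and by Mir137 at 28970 ± 6541 CPM (SD, n = 2). Mir134, which in rat neurons restrains dendritic spine growth through Limk1, stood at 462 CPM in pup 3 and 952 CPM in pup 1. Mir138-1 and Mir138-2, hairpins of another regulator of spine size in rat neurons, stood at 1406 and 672 CPM in pup 3 and at 767 and 387 CPM in pup 1.

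The listed microRNAs were called in both directions between the pups. By the exact binomial test 8 of the 22 were called higher in pup 3, 12 lower and 2 neither, beside 30.2% and 32.8% of all tested genes, and the median log2 ratio was -0.22 against -0.02 over all genes tested. Under total counts 7 were called higher and 14 lower, beside 21.3% and 44.8% of all tested genes, with a median of -0.42 against -0.22. Mir134 had a log2 ratio of -0.84 and Mir138-1 of 1.07, while those of the members were between -0.20 and -0.16. Several listed hairpins lie in shared clusters or near-identical copies, so their counts are not independent.

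The genes most like each member in level were found by distance on log2(CPM + 1) over the 2 pups. Nearest to Mir132 were Mir154 (1639 CPM in pup 3 and 2076 CPM in pup 1), Mir770 (1699 and 2039 CPM) and Gm25301 (1615 and 2394 CPM). Mir154 and Mir770 are hairpins of the imprinted Dlk1-Dio3 region. Nearest to Mir212 were Mir24-2 (85.3 and 110.1 CPM), Mir505 (83.1 and 114 CPM) and the oligodendrocyte-linked Mir219a-1 (78.8 and 105 CPM). Nearest to Mir184 were Mir7059 (2.87 and 3.43 CPM), Mir6971 (2.60 and 4.09 CPM) and Mir1927 (3.13 and 3.76 CPM), none of which passed the exact binomial test between the pups. The 3 genes nearest to Mir132 and the 3 nearest to Mir212 were all called lower in pup 3 by that test, beside 32.8% of all tested genes. They were picked by their levels in both pups, so their ratios had to lie near the member's. Their calls are therefore no separate result. With 2 pups such likeness is one of level, and it says nothing of shared control.

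Listed microRNAs of epithelium and of sensory tissue and retina stood at higher levels than Mir184 itself. These lists are wider than the lens and corneal epithelium in which Mir184 is known to be abundant, and do not single those out. All 7 listed epithelial microRNAs were detected, and they summed to 12018 CPM in pup 3 and 5344 CPM in pup 1. Of these, 6 were called higher in pup 3 and 1 was not called under TMM, beside 30.2% of all tested genes called higher. Under total counts 5 were called higher and Mir203 lower, beside 21.3% and 44.8% of all tested genes. The list was led in level by Mir429 at 3889 ± 2290 CPM and Mir200b at 1930 ± 1570 CPM (SD, n = 2). Mir205, of stratified epithelium, stood at 17.3 CPM in pup 3 and 16.8 CPM in pup 1. The 5 sensory and retinal microRNAs summed to 6343 CPM in pup 3 and 6074 CPM in pup 1, led by Mir204 (4538 ± 1010 CPM) and Mir182 (869 ± 745 CPM). Of these, 3 were called higher in pup 3, with log2 ratios of 2.23 for Mir182, 1.98 for Mir96 and 1.13 for Mir183, Mir204 was called lower at -0.26, and 1 was not called. Mir184 had 2.73 CPM in pup 3, where the epithelial sum was higher, and 3.65 CPM in pup 1; the part of such cells in its level was not tested. Blood, vessel and muscle microRNAs summed to 42455 CPM in pup 3 and 46641 CPM in pup 1, led by endothelial Mir126a (38678 ± 2564 CPM) and Mir143 of smooth muscle (5317 ± 446 CPM). Among the listed muscle microRNAs, Mir206 stood at 44.5 CPM in pup 3 and 94.8 CPM in pup 1. Mir133b stood at 0.521 CPM in pup 3 and 1.11 CPM in pup 1, and Mir1a-1 at 0 in both. Reads that map to several places are left out, so the 0 of a hairpin copy such as Mir1a-1 does not show that its microRNA was absent.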

How the data were processed

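The samples are small RNA libraries of 2 newborn forebrains, 1 from each pup. The authors deposited counts of reads per microRNA gene, on mm10 with annotation M4, per the notes deposited with them. Aligner and counter: not given in the sources used here. There are 3 columns of deposited counts, and the first, which equals the sum of the others in all 1973 genes, was used; the second was read as the sense strand, since it held 98.1% of reads in pup 3 and 97.3% in pup 1. The 4 tallies that name no gene stayed out of library sizes and tests: reads mapping to several places (43.5% in pup 3, 43.0% in pup 1), unmapped reads (14.4% and 14.9%), reads in no gene (1.26% and 1.85%) and ambiguous reads.

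From these counts CPM, within-library ratios and ratios of pup 3 over pup 1 (0.5 added, TMM factors 0.933 and 1.07) were computed. No edgeR quasi-likelihood test could be fitted, since 1 group has no contrast. Across all genes with at least 20 counts in total, a two-sided exact binomial test with Benjamini-Hochberg adjustment at 0.05 was used. P-values measure only the difference between these libraries. Names and positions came from GENCODE M21, where 1894 identifiers matched and 79 did not, and sequences from RefSeq on GRCm38.p6. The members, the lists and the rule for named genes (members, 3 nearest genes in level, the 2 most abundant of each list, seed relatives, neighbours) were chosen with earlier results of these data known. Mir134, Mir138-1, Mir138-2, Mir205, Mir124a, Mir9-2, Mir9-3, Mir96, Mir183, Mir203, Mir206, Mir133b and the neighbouring pairs were named after their values were seen. Mir191 and Mir9-1 of the lists had no row under those symbols. Tools were edgeR 4.0.16, DESeq2 1.42.0 (size factors only) and R 4.3.3, and Python 3.11.15 with scipy 1.17.1.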

Additional observations from a re-analysis of the deposited data

How the results depend on the processing

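Levels kept to within 1 SD on sense-strand reads and on TMM library sizes. Per 1000000 of all reads of the library they were 776 for Mir132, 38.8 for Mir212 and 1.29 for Mir184, as that total also holds unassigned reads. Leaving out each pup in turn gave 1665 to 2170 CPM, 84.0 to 107.7 CPM and 2.73 to 3.65 CPM for these genes, and log2 ratios of Mir132 over Mir212 of 4.31 to 4.33 and of Mir132 over Mir184 of 9.21 to 9.25. Per hairpin base, a setting chosen after seeing the data, these were 4.78 and 9.30. The log2 ratio of pup 3 over pup 1 stayed negative for all 3 members under the 4 settings that can change it (DESeq2 size factors, total counts, sense-strand reads and 1 added to each count). Mir212 passed the test under total counts (-0.36), sense-strand reads (-0.18) and a count minimum of 50 (-0.16), the last because fewer genes were adjusted over. On sense-strand reads its counts were unchanged, while the scaling and the number of genes adjusted over (447 against 460) differed. The part of each in the call was not tested. Genes called ranged from 283 to 304 against 290. Of neighbouring pairs, also a later choice, 4 of 91 within 10000 bases and 1 of 37 without shared stretches were closer than Mir132 and Mir212. No paired analysis was possible because there is 1 group. Depth limits Mir184, with 21 and 33 counts.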
